A study of Mus musculus with 9 samples.

Results

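The genes described here make and load the peptide cargo of major histocompatibility complex (MHC) class I in mouse brain after haemorrhage. They are the rows of the deposited expression table named H2-D1, H2-K1, B2m, Tap1, Tap2, Tapbp, Psmb8, Psmb9, Psmb10 and Nlrc5, so 10 of 35112 genes. Rows were matched by symbol, and the list was chosen with earlier results of these data known. All 10 passed the filter on low counts that left 21900 genes to test. Polyadenylated RNA was sequenced from brain tissue of wild-type C57BL/6 mice in 3 groups, each of 3 separate animals taken at 72 hours: intracerebral haemorrhage (ICH) given P7C3-A20, ICH without the compound, and sham-operated controls. P7C3-A20 is an aminopropyl carbazole studied as a neuroprotective agent. The labels give no brain region, age, dose or route, no vehicle for the other groups, and no method by which the bleeding was induced. A library is written as its group and replicate number (ICH 2).

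Class I molecules show fragments of a cell's own proteins to CD8 T cells and to natural killer (NK) cell receptors. A heavy chain pairs with the light chain beta-2 microglobulin in the endoplasmic reticulum. Peptides cut by the proteasome, in which immune subunits can replace the constitutive catalytic ones, are pumped in by the TAP transporter and fitted by tapasin. Interferon signalling and the transactivator NLRC5 raise transcription of these genes together. In healthy brain, microglia and vessels carry more class I than neurons and other glia, which carry little.

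Of the 10 genes, 8 had a promoter window in the RefSeq table (GRCm38.p6, 300 bases across the start annotated there, the last 50 of them after it). H2-K1 had 2 windows, of which the first is shown. The Psmb10 window (chromosome 8, 105938343 to 105938642, minus strand) lies wholly upstream of the Psmb10 row used here, which ends at 105938104. The windows of the heavy chains, the light chain and a transporter subunit are shown because these genes lead the accounts below and show how the heavy chains resemble each other more than B2m or Tap1 in the elements found. Sequences run 5′ to 3′ on the gene's strand, and capitals mark matches, on either strand, to the NF-kappaB consensus, to the core of the interferon-stimulated response element (GAAANNGAAA), to a GAS element (TTCNNNGAA) or to the CCAAT box (CCAAT). The windows lie at chr17:35262844-35263143, plus strand (H2-D1), chr17:34000298-34000597, minus strand (H2-K1), chr2:122147437-122147736, plus strand (B2m), and chr17:34187306-34187605, plus strand (Tap1).
H2-D1: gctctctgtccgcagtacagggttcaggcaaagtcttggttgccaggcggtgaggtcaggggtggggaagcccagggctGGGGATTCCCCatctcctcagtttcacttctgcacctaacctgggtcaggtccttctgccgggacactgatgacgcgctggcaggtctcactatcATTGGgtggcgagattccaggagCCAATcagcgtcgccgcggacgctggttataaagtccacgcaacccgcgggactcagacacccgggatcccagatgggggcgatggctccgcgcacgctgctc
H2-K1: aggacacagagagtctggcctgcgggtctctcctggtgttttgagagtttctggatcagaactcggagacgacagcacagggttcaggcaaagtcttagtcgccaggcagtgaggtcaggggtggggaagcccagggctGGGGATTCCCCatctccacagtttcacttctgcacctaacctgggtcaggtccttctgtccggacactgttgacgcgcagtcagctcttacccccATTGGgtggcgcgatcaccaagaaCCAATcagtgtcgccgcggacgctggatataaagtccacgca
B2m: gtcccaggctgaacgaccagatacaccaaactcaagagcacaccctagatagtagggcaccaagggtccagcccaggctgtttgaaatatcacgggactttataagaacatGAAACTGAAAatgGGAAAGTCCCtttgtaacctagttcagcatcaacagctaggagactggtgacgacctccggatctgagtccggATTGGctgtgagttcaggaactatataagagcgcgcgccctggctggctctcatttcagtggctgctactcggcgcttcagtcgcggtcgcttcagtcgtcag
Tap1: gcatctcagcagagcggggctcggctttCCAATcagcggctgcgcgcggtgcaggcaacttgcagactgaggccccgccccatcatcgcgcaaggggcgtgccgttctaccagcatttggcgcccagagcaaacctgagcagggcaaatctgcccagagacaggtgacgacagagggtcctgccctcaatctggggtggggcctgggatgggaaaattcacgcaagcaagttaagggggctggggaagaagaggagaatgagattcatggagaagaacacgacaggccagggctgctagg

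The H2-D1 and H2-K1 windows aligned over 239 bases, of which 211 (88.3%) were identical, and both hold the NF-kappaB consensus as a stretch that matches on both strands, from base 80 of the H2-D1 window and base 140 of the H2-K1 window. The B2m window holds another NF-kappaB match from base 125, shortly after an interferon response element core at bases 112 to 121. The NF-kappaB consensus was thus found in 3 of the 8 members with a window, against 4.5% of all 32817 windows, and the interferon element core in B2m alone, against 3.43% of windows. A GAS element was found in the Psmb8 window, against 8.29% of windows, and a CCAAT box in 6 of the 8, against 37.4%. Tap1 and Psmb9 are transcribed away from each other. Their annotated starts are 226 bases apart and their windows share 275 bases, so the sequence printed for Tap1 also holds the Psmb9 start. The CCAAT box counted for each is the same stretch, at bases 29 to 33 of the Tap1 window and 243 to 247 of the Psmb9 window. As the H2-D1 and H2-K1 windows are also alike, these numbers of members are not numbers of independent sites. A match is a description of letters and not of binding. Only exact matches to these patterns were counted, so a window without one, such as those of H2-D1 and H2-K1 for the interferon element core, may still hold a variant of the element.

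Each library held between 51537047 and 63324728 estimated counts. Its correlation with the others over all genes lay at 0.959 to 0.973 inside a group and at 0.927 to 0.967 across groups. The members' estimated counts in a library ran from 60 (Psmb9) to 29977 (B2m), and values in FPKM, which divide fragments by the transcript's length and by the library's size, allow levels of different genes to be compared. ICH+P7C3-A20 1 stood apart, at -87.4 on the second principal component, where the other libraries lay between -25.2 and 41.6. Its summed cortical neuron markers were 1272 CPM (counts scaled to an equal library size), against 439 and 524 CPM in the other ICH+P7C3-A20 libraries. These sums were 228 to 319 CPM in ICH and 183 to 437 CPM in sham, so every ICH+P7C3-A20 library lay above both groups. Thalamic and hypothalamic neuron markers summed to 55.5 to 146 CPM in ICH+P7C3-A20, 91.0 to 332 CPM in ICH and 24.6 to 338 CPM in sham. The part of sampled brain region in the members' values was not tested. ICH+P7C3-A20 1 had the lowest FPKM of its group for all 10 members, as did ICH 1, which did not stand apart, in its own group. Mitochondrially encoded transcripts made up 10.4%, 9.74% and 9.14% of counts in ICH+P7C3-A20 2, ICH 3 and sham 3, and 14.3% to 18.5% in the other 6 libraries. By FPKM ICH+P7C3-A20 2 was the highest of its group for 9 members, ICH 3 for 8 and sham 3 for 8. By CPM on TMM-scaled totals, the scaling the tests use, these numbers were 8, 4 and 7, and ICH 2 was the highest for 6. The part of the mitochondrial share in the members' values was not tested beyond the refits given with the counts below.

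In brains with ICH all 10 members were higher than in sham brains, by 1.80-fold (Psmb10) to 5.14-fold (Psmb8). With P7C3-A20, 9 of the 10 were lower than in ICH, by 1.81-fold (Tapbp) to 4.84-fold (Nlrc5), and Psmb10 did not pass the test. None passed it between ICH+P7C3-A20 and sham. Log2 changes are given ± their error from edgeR's quasi-likelihood fit over all 9 libraries, and a gene is called at a Benjamini-Hochberg adjusted p under 0.05 over 21900 genes. As bulk tissue was sequenced, fewer cells of a type and less RNA per cell cannot be told apart in any of these values.

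**Figure D1:**
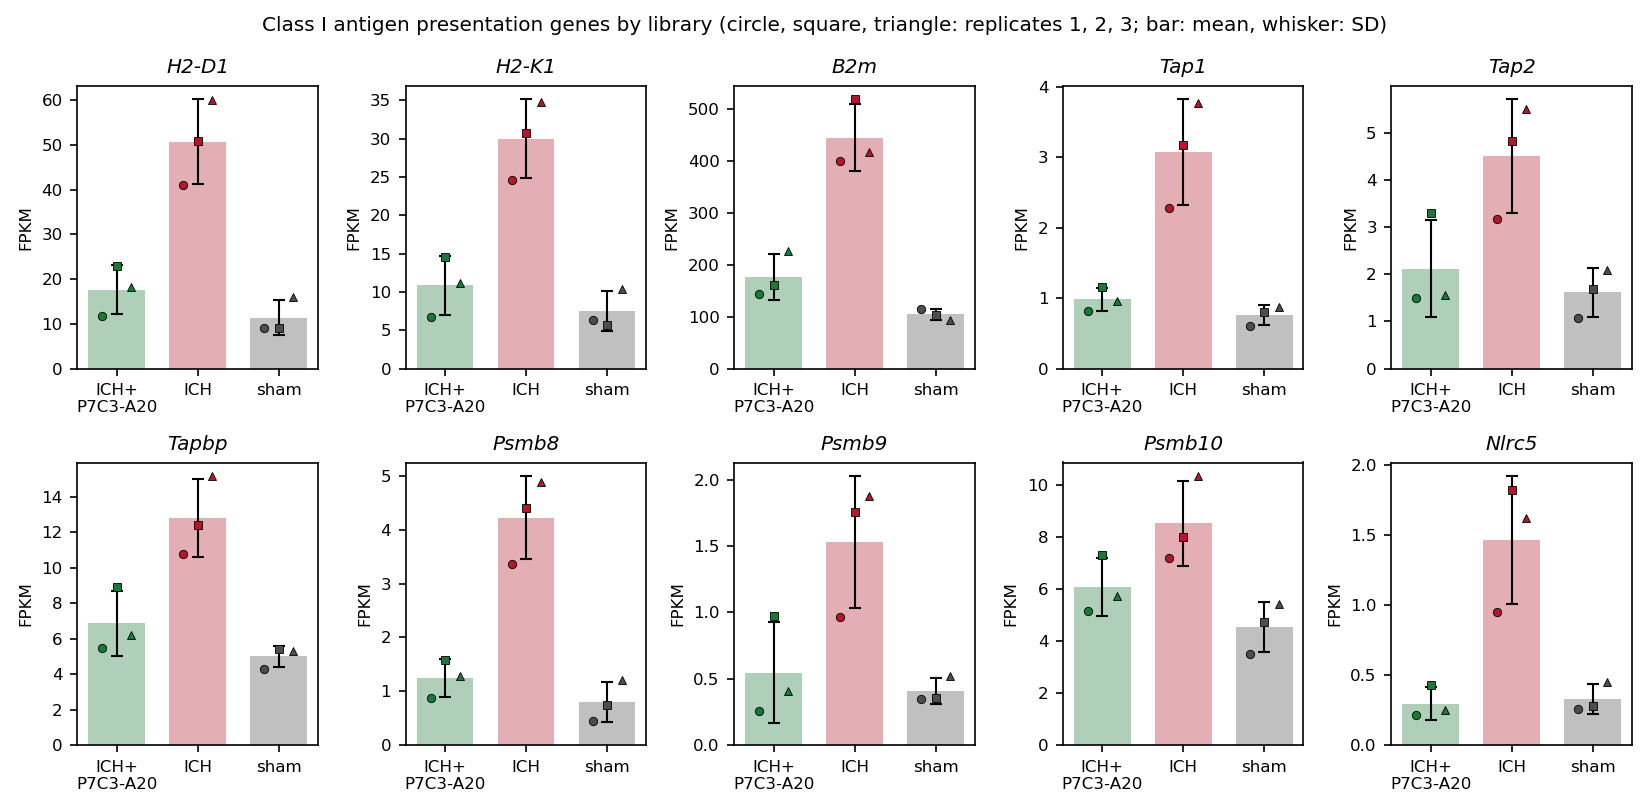
FPKM (vertical axes, linear from 0) of the 10 genes in ICH+P7C3-A20, ICH and sham brains, with circles, squares and triangles for replicates 1, 2 and 3, bars for means and whiskers for SD (n = 3). In every panel the 3 ICH points lie above all sham points, while ICH+P7C3-A20 points reach into the ICH range for Tap2, Psmb9 and Psmb10.

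The 2 classical heavy chains of this strain, H2-D1 and H2-K1, hold the peptide at the cell surface. H2-D1 (chromosome 17, 35262730 to 35267499, plus strand) had 11.8, 22.8 and 18.2 FPKM in ICH+P7C3-A20 brains, 41.0, 50.9 and 60.1 FPKM in ICH brains and 9.16, 9.04 and 15.9 FPKM in sham brains. The ICH libraries were above all others, and the ranges of ICH+P7C3-A20 and sham overlapped. H2-D1 was 4.36-fold higher in ICH than in sham (log2 change 2.12 ± 0.22, edgeR adjusted p = 6.69e-05) and 2.80-fold lower in ICH+P7C3-A20 than in ICH (log2 change -1.49 ± 0.21, edgeR adjusted p = 0.00676).

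H2-K1 (chromosome 17, 33996017 to 34000347, minus strand) had 6.78, 14.5 and 11.2 FPKM in ICH+P7C3-A20 brains, 24.6, 30.7 and 34.7 FPKM in ICH brains and 6.29, 5.74 and 10.4 FPKM in sham brains. It ordered the libraries much as H2-D1 did, with ICH above all others and the remaining groups overlapping. Its log2 change was 1.97 ± 0.23 for ICH against sham (edgeR adjusted p = 0.000162) and -1.43 ± 0.23 for ICH+P7C3-A20 against ICH (edgeR adjusted p = 0.00739). The FPKM ratio of H2-D1 to H2-K1 was 1.57 to 1.75 in ICH+P7C3-A20, 1.66 to 1.73 in ICH and 1.46 to 1.57 in sham. The ICH ratios lay above those of sham without overlap, and ICH+P7C3-A20 overlapped both. Transcripts of H2-D1 share 12.8% of their 50-base words with other genes and those of H2-K1 9.63%, and 5.44% and 4.08% with each other, so counts of single class I heavy chains are uncertain where reads were split among copies.

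B2m (chromosome 2, 122147686 to 122153083, plus strand), the light chain of every class I molecule, was the most abundant member on the per-length scale. It had 144, 160 and 226 FPKM in ICH+P7C3-A20 brains, 400, 519 and 418 FPKM in ICH brains and 115, 104 and 94.2 FPKM in sham brains. The 3 groups did not overlap, in the order ICH, ICH+P7C3-A20, sham. B2m was 4.13-fold higher in ICH than in sham (log2 change 2.05 ± 0.23, edgeR adjusted p = 0.000103) and 2.42-fold lower in ICH+P7C3-A20 than in ICH (log2 change -1.28 ± 0.22, edgeR adjusted p = 0.00918). None of its 50-base words occur in another gene.

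Tap1 and Tap2 form the peptide pump of the endoplasmic reticulum membrane. Tap1 (chromosome 17, 34187553 to 34197225, plus strand) had 0.820, 1.16 and 0.965 FPKM in ICH+P7C3-A20 brains, 2.29, 3.17 and 3.77 FPKM in ICH brains and 0.605, 0.810 and 0.881 FPKM in sham brains. ICH stood clear of both other groups, which overlapped. Its log2 change was 1.95 ± 0.20 for ICH against sham (edgeR adjusted p = 6.19e-05) and -1.59 ± 0.20 for ICH+P7C3-A20 against ICH (edgeR adjusted p = 0.00596).

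Tap2 (chromosome 17, 34203527 to 34216321, plus strand) had 1.504, 3.298 and 1.55 FPKM in ICH+P7C3-A20 brains, 3.17, 4.83 and 5.50 FPKM in ICH brains and 1.07, 1.69 and 2.10 FPKM in sham brains. ICH+P7C3-A20 2 lay above ICH 1, so those groups overlapped, while ICH and sham did not. Its log2 change was 1.44 ± 0.29 for ICH against sham (edgeR adjusted p = 0.00476) and -1.07 ± 0.29 for ICH+P7C3-A20 against ICH (edgeR adjusted p = 0.0467). The call against ICH held in 11 of 21 other settings (adjusted p 0.00334 to 0.168) and was lost without sham 2, any 1 ICH library, ICH+P7C3-A20 1 or ICH+P7C3-A20 3. Tap1 amounted to 0.351 to 0.621 of Tap2 FPKM in ICH+P7C3-A20, 0.656 to 0.722 in ICH and 0.420 to 0.567 in sham.

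Tapbp (tapasin; chromosome 17, 33915899 to 33926197, plus strand) bridges TAP to the empty heavy chain. It had 5.45, 8.93 and 6.22 FPKM in ICH+P7C3-A20 brains, 10.8, 12.4 and 15.2 FPKM in ICH brains and 4.29, 5.41 and 5.29 FPKM in sham brains. The groups did not overlap, although ICH+P7C3-A20 1 exceeded the highest sham library by little. Its log2 change was 1.3 ± 0.15 for ICH against sham (edgeR adjusted p = 0.000111) and -0.86 ± 0.14 for ICH+P7C3-A20 against ICH (edgeR adjusted p = 0.00829). In the deposited table Tapbp overlaps Zbtb22 over 3422 bases of the same strand, and Zbtb22 averaged 5.86 FPKM, so reads there could belong to either gene.

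Psmb8, Psmb9 and Psmb10 encode the immune catalytic subunits that can take the places of Psmb5, Psmb6 and Psmb7 in the proteasome. Psmb8 (chromosome 17, 34197721 to 34201454, plus strand) had 0.878, 1.58 and 1.29 FPKM in ICH+P7C3-A20 brains, 3.37, 4.41 and 4.89 FPKM in ICH brains and 0.453, 0.746 and 1.20 FPKM in sham brains. ICH again stood clear and the other groups overlapped. Psmb8 had the largest log2 change of the 10 members for ICH against sham, 2.36 ± 0.30 (edgeR adjusted p = 0.000248), and a log2 change of -1.71 ± 0.29 for ICH+P7C3-A20 against ICH (edgeR adjusted p = 0.00859).

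Psmb9 (chromosome 17, 34181987 to 34187764, minus strand) had 0.257, 0.976 and 0.404 FPKM in ICH+P7C3-A20 brains, 0.964, 1.76 and 1.88 FPKM in ICH brains and 0.348, 0.352 and 0.523 FPKM in sham brains. ICH and sham did not overlap, but ICH+P7C3-A20 2 lay just above ICH 1. Its log2 change was 1.86 ± 0.41 for ICH against sham (edgeR adjusted p = 0.00707) and -1.48 ± 0.40 for ICH+P7C3-A20 against ICH (edgeR adjusted p = 0.0464). The call against ICH held in 8 of 18 other settings (adjusted p 0.00269 to 0.151) and was lost without sham 1 or 2, any 1 ICH library, ICH+P7C3-A20 1 or ICH+P7C3-A20 3. Psmb9 and Tap1 overlap over 212 bases on opposite strands, and whether counting used strand is not given in the sources used here.

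Psmb10 (chromosome 8, 105935735 to 105938104, minus strand) had 5.15, 7.31 and 5.74 FPKM in ICH+P7C3-A20 brains, 7.19, 8.00 and 10.3 FPKM in ICH brains and 3.51, 4.72 and 5.41 FPKM in sham brains. It was the most abundant immune subunit in all 3 groups and the member with the smallest log2 changes against sham in ICH and against ICH in ICH+P7C3-A20. Its log2 change for ICH against sham was 0.85 ± 0.16 (edgeR adjusted p = 0.00334). Set against ICH, ICH+P7C3-A20 gave -0.44 ± 0.16 (95% interval -0.79 to -0.08, edgeR adjusted p = 0.125), and ICH+P7C3-A20 2 lay above ICH 1. It was called in 0 of 21 other settings of that comparison (adjusted p 0.0642 to 0.370). A value that misses the threshold does not show an equal level.

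The constitutive partners Psmb5, Psmb6 and Psmb7 were not called in any of the 3 comparisons, with log2 changes of -0.05, 0.34 and -0.02 for ICH against sham (1 of the 3 was called higher without sham 3) and -0.22, -0.40 and -0.11 for ICH+P7C3-A20 against ICH. The share of all 6 catalytic subunits that fell on the immune subunits was taken by FPKM in each library. Psmb10 was its largest part, and no immune subunit was called between ICH+P7C3-A20 and sham. The constitutive subunits had a median log2 change of -0.13 in that comparison. The share was 10.8%, 10.4% and 12.4% in ICH+P7C3-A20 (mean 11.2 ± 1.04%, SD, n = 3), 13.6%, 17.1% and 16.0% in ICH (mean 15.6 ± 1.79%) and 7.05%, 8.28% and 7.15% in sham (mean 7.49 ± 0.684%). No group overlapped another, and each difference had a two-sided exact permutation p = 0.1, the smallest that 3 against 3 allows. ICH exceeded sham by 8.09 percentage points, ICH+P7C3-A20 fell by 4.35 points against ICH, and ICH+P7C3-A20 exceeded sham by 3.74 points.

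Each immune subunit can also be set against the constitutive subunit it replaces. Psmb8 reached 0.0346 to 0.0511 of Psmb5 in ICH+P7C3-A20, 0.0921 to 0.130 in ICH and 0.0156 to 0.0239 in sham. Psmb9 reached 0.0178 to 0.0387 of Psmb6 in ICH+P7C3-A20, 0.0421 to 0.0784 in ICH and 0.0201 to 0.0224 in sham. Psmb10 reached 0.432 to 0.510 of Psmb7 in ICH+P7C3-A20, 0.525 to 0.650 in ICH and 0.286 to 0.347 in sham. The Psmb9 ratio is the one of the 3 whose ICH+P7C3-A20 and sham ranges overlapped. These ratios were chosen after values had been seen.

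**Figure D2:**
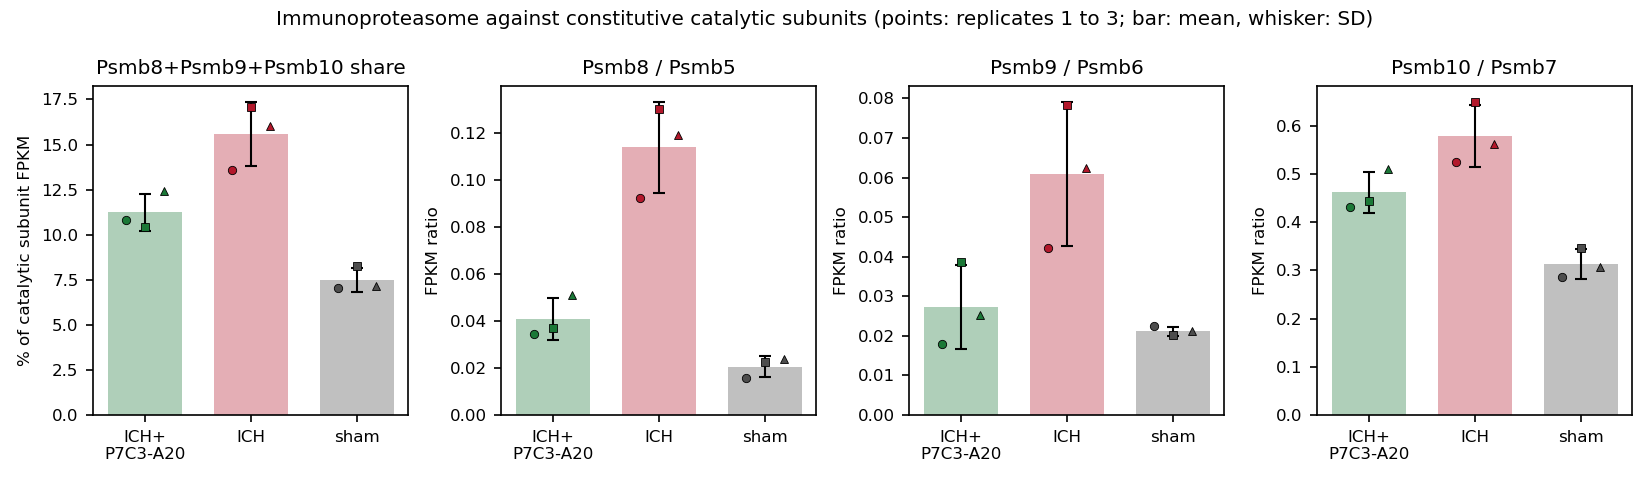
The first panel plots the percent of FPKM of 6 catalytic proteasome subunits that falls on Psmb8, Psmb9 and Psmb10, the others the FPKM ratio of each immune subunit to its constitutive partner, for ICH+P7C3-A20, ICH and sham (points: replicates 1 to 3, bars: means, whiskers: SD, all axes from 0). The share averaged 11.2% in ICH+P7C3-A20, 15.6% in ICH and 7.49% in sham, with no overlap between groups.

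Nlrc5 (chromosome 8, 94434356 to 94527272, plus strand) encodes the transactivator that acts on class I promoters. It had 0.211, 0.428 and 0.247 FPKM in ICH+P7C3-A20 brains, 0.950, 1.82 and 1.62 FPKM in ICH brains and 0.258, 0.279 and 0.449 FPKM in sham brains. ICH stood clear, and the other groups lay on top of each other. Its log2 change was 2.12 ± 0.30 for ICH against sham (edgeR adjusted p = 0.000543) and -2.27 ± 0.30 for ICH+P7C3-A20 against ICH (edgeR adjusted p = 0.00634). Set against sham, ICH+P7C3-A20 gave -0.15 ± 0.29 (95% interval -0.80 to 0.50, edgeR adjusted p = 0.869), the only member with a negative estimate there, and its sign turned without sham 3 (0.0580).

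By mean FPKM in ICH the order was B2m (446), H2-D1 (50.7), H2-K1 (30.0), Tapbp (12.8), Psmb10 (8.51), Tap2 (4.50), Psmb8 (4.22), Tap1 (3.08), Psmb9 (1.53) and Nlrc5 (1.47). Within single ICH libraries Tap2 and Psmb8 changed places, as did Psmb9 and Nlrc5, so the order of these neighbours is not fixed. Psmb8 lay above Tap1 in each of the 3 ICH libraries. Across the 9 libraries each member's log2 CPM correlated with the mean of the other 9 at r = 0.883 (B2m) to 0.986 (H2-D1), a description of points that share their groups and libraries.

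For ICH against sham, 10 of 10 members were called higher, where 15.6% of the 21900 tested genes were. All 10 also had every ICH library above every sham library in FPKM, as did 23.0% of tested genes. Because the members were chosen with earlier results of these data known, such shares, here and below, describe the list and do not test it. The members' median log2 change was 1.96, against 0.00 over all tested genes. The count was 10 whichever library was left out, and 10 in the 6 libraries with over 12% mitochondrial counts. Of all calls 60.0% were higher, or 78.0% with unfiltered limma on log2(FPKM + 1) and 43.1% after quantile normalization of FPKM, under which the 8 members still in the test were all called higher.

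ICH+P7C3-A20 set against ICH compares haemorrhage with and without the compound. No vehicle is given for ICH, and the part of sampled brain region was not tested. Here 9 of 10 members were called lower and 0 higher, where 6.05% of tested genes were lower, 2.69% higher and 8.74% called in either direction. In 7 of 10 every ICH+P7C3-A20 library lay below every ICH library, as in 16.4% of tested genes. The members' median log2 change was -1.46, against -0.01 over all tested genes. Leaving out 1 library gave 7 to 9 calls, with Tap2, Psmb9 or both lost (7 without ICH+P7C3-A20 1, the library that stood apart), and the 6 libraries with over 12% mitochondrial counts gave 9. Of all calls 30.8% were higher. This share was 41.5% after quantile normalization of FPKM, 17.2% with limma on log2(FPKM + 1) and 8.84% with the same and no filter. It was 12.6% without ICH 1, 18.6% without ICH 2, 11.8% without ICH 3 and 16.0% without ICH+P7C3-A20 1.

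Between ICH+P7C3-A20 and sham 0 members were called by edgeR, where 4.58% of tested genes were called higher, 0.744% lower and 5.32% in either direction. At an unadjusted p under 0.05 there were 6 members, and DESeq2 called 1, B2m (adjusted p = 0.0120, with 0.0120 to 0.269 over its other settings). Log2 changes ran from -0.15 (Nlrc5) to 0.77 (B2m; 95% interval 0.29 to 1.26, edgeR adjusted p = 0.0762), with a median of 0.43 against 0.03 over all tested genes. B2m and Tapbp had every ICH+P7C3-A20 library above every sham library, as did 10.7% of tested genes, and 0 members had every one below, as did 5.39%. H2-D1 (log2 change 0.64 ± 0.21, edgeR adjusted p = 0.128) was called without sham 3 (adjusted p = 0.0329) and without ICH+P7C3-A20 1 (adjusted p = 0.0348). The 3 comparisons share their libraries, so their values are not independent of each other.

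**Figure D3:**
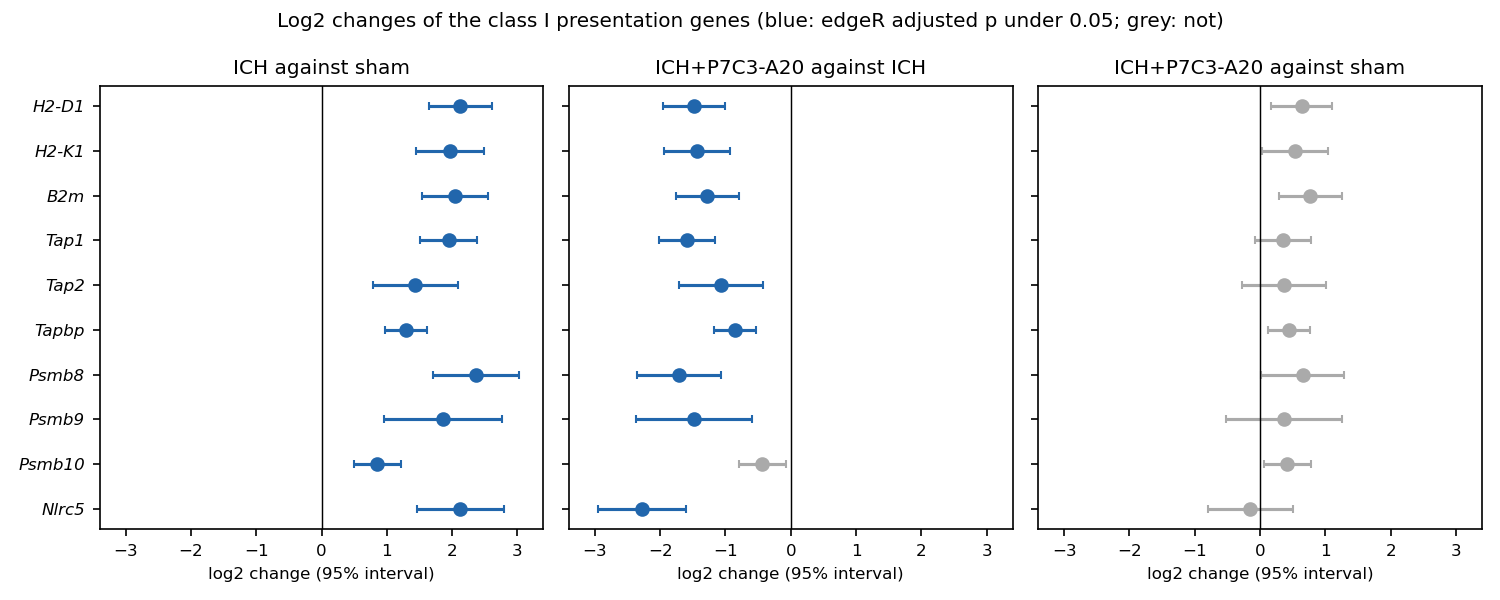
Log2 changes (horizontal axes) of the 10 genes with 95% intervals for ICH over sham, for ICH+P7C3-A20 over ICH and for ICH+P7C3-A20 over sham, in blue where edgeR's adjusted p is under 0.05 and grey where it is not. All 10 are blue and positive in the first panel, 9 are blue and negative in the second with Psmb10 grey, and none is blue in the third.

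Other class I and class I-like heavy chains moved less uniformly. Of 17 tested, 9 were called higher in ICH than in sham and 0 lower, with a median log2 change of 0.97. The nonclassical H2-Q7 had the largest change (3.21, edgeR adjusted p = 0.000531), at 0.295 FPKM in ICH+P7C3-A20, 1.38 FPKM in ICH and 0.149 FPKM in sham. H2-T23, which presents leader peptides to NK receptors, changed by 1.10 (edgeR adjusted p = 0.0382), and H2-Q2 by -1.14 without passing (edgeR adjusted p = 0.222). With the compound 6 were called lower than in ICH (H2-Q4, H2-Q6, H2-Q7, H2-T22, H2-M3 and Hfe), with a median of -0.76, but only 1 without ICH 2, 2 without ICH 3 and 3 without ICH+P7C3-A20 1. Against sham, ICH+P7C3-A20 brains were called higher for 2, the iron regulator Hfe (log2 change 1.36, edgeR adjusted p = 0.00142) and the antibody receptor Fcgrt (0.59, edgeR adjusted p = 0.0149), and for 1 without ICH+P7C3-A20 2 or 3.

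Among 7 other genes of the loading complex and of peptide trimming, 4 were called higher in ICH than in sham: the chaperones Calr (log2 change 0.84) and Uggt1 (0.40), the disulfide isomerase Pdia3 (0.96) and the trimming peptidase Erap1 (1.29, edgeR adjusted p = 0.000265). Calr, Pdia3 and Erap1 were called lower in ICH+P7C3-A20 than in ICH, by log2 changes of -0.63, -0.70 and -0.85, and 0 of 7 were called between ICH+P7C3-A20 and sham. Of 12 non-catalytic 20S and assembly genes only Psmb2 was called, in ICH against sham (0.41, edgeR adjusted p = 0.0356), and not without sham 1 or any 1 ICH library. Of 4 activator genes only Psme1, a subunit of the interferon-inducible PA28 cap, was called, higher in ICH than in sham (0.75, edgeR adjusted p = 0.000739) and lower in ICH+P7C3-A20 than in ICH (-0.51, edgeR adjusted p = 0.0213). The last call was lost without ICH 2, ICH 3 or ICH+P7C3-A20 1. Its partner Psme2 had log2 changes of 0.93 and -1.05 that did not pass (edgeR adjusted p = 0.0729 and 0.0869).

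Of 17 factors known to bind class I promoters or their regulators, 10 were called higher in ICH than in sham and 1, the CCAAT-binding Nfyb, lower (-0.46, edgeR adjusted p = 0.0184; lost without ICH 2 or 3). Irf8 had the largest change (2.61, edgeR adjusted p = 6.31e-06), followed by Irf1 (1.41, edgeR adjusted p = 0.00122) and Irf7 (1.38, edgeR adjusted p = 0.0111). In ICH+P7C3-A20 8 were called lower than in ICH (4 without ICH 2 or ICH 3), with Irf7 lowest at -2.29 (edgeR adjusted p = 0.00684). Rfx5, Rfxap and Rfxank, the subunits through which NLRC5 reaches the promoter, and Creb1 were called in none of the 3 comparisons. Irf8 alone was called between ICH+P7C3-A20 and sham (1.27, edgeR adjusted p = 0.00127).

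Interferon ligands were at the edge of detection. Of 5 listed, Ifng and Ifnb1 are in the table and neither passed the filter. Ifng had 0 estimated counts in all ICH+P7C3-A20 and ICH libraries and 4, 6 and 0 in sham, and Ifnb1 had 3 in ICH 3 and 0 elsewhere. Of 8 genes for receptors, kinases and their inhibitor Socs1, 5 were called higher in ICH than in sham, led by Ifnar2 (1.3, edgeR adjusted p = 0.000105) and Ifngr1 (1.19, edgeR adjusted p = 0.000731). Ifnar2 alone was called lower in ICH+P7C3-A20 than in ICH (-0.79, edgeR adjusted p = 0.0105; lost without ICH 2), and Ifngr1 alone higher in ICH+P7C3-A20 than in sham (0.69, edgeR adjusted p = 0.0480), a call lost without sham 1, sham 2, any 1 ICH library, ICH+P7C3-A20 2 or ICH+P7C3-A20 3.

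Of 9 receptors of class I listed 5 were tested, and Pirb and Cd8a were called higher in ICH than in sham (1 of the 2 without ICH 1). The myeloid inhibitory receptor Pirb was higher in ICH than in sham (4.63, edgeR adjusted p = 4.41e-05), lower in ICH+P7C3-A20 than in ICH (-1.75, edgeR adjusted p = 0.0217) and higher in ICH+P7C3-A20 than in sham (2.89, edgeR adjusted p = 0.00325). The call against ICH was lost without ICH 1, ICH 2 or ICH+P7C3-A20 1. The CD8 chain Cd8a had 0, 14 and 17 estimated counts in ICH+P7C3-A20, 33, 24 and 17 in ICH and 0 in each sham library. The T cell gene Cd3e had 3, 12 and 0 in ICH+P7C3-A20, 7, 47 and 4 in ICH and 14, 0 and 0 in sham. These T cell genes thus stayed at or under 47 counts in every library.

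Class II genes and interferon-stimulated genes share regulators with class I. Of 10 class II genes 8 were called higher in ICH than in sham (median log2 change 2.44) and 6 lower in ICH+P7C3-A20 than in ICH (median -1.35; 3 without ICH 2). Between ICH+P7C3-A20 and sham 4 were called higher (median 1.51; 1 without ICH+P7C3-A20 3), among them the class II chain H2-Ab1 (log2 change 2.01, edgeR adjusted p = 0.00906). Of 14 interferon-stimulated genes 11 were called higher in ICH than in sham (median 1.62; 10 to 12 with 1 library left out). In ICH+P7C3-A20 13 were called lower than in ICH (median -2.07; 10 to 13 with 1 library left out). Between ICH+P7C3-A20 and sham the chemokine Cxcl10 was called higher (2.95, edgeR adjusted p = 0.00116) and Ifi44 lower (-1.45, edgeR adjusted p = 0.0363; lost without sham 1 or 2, ICH 3 or any 1 ICH+P7C3-A20 library), with a list median of -0.39. The class I median of 0.43 in that comparison lies between these, and the difference between lists was not tested.

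**Figure D4:**
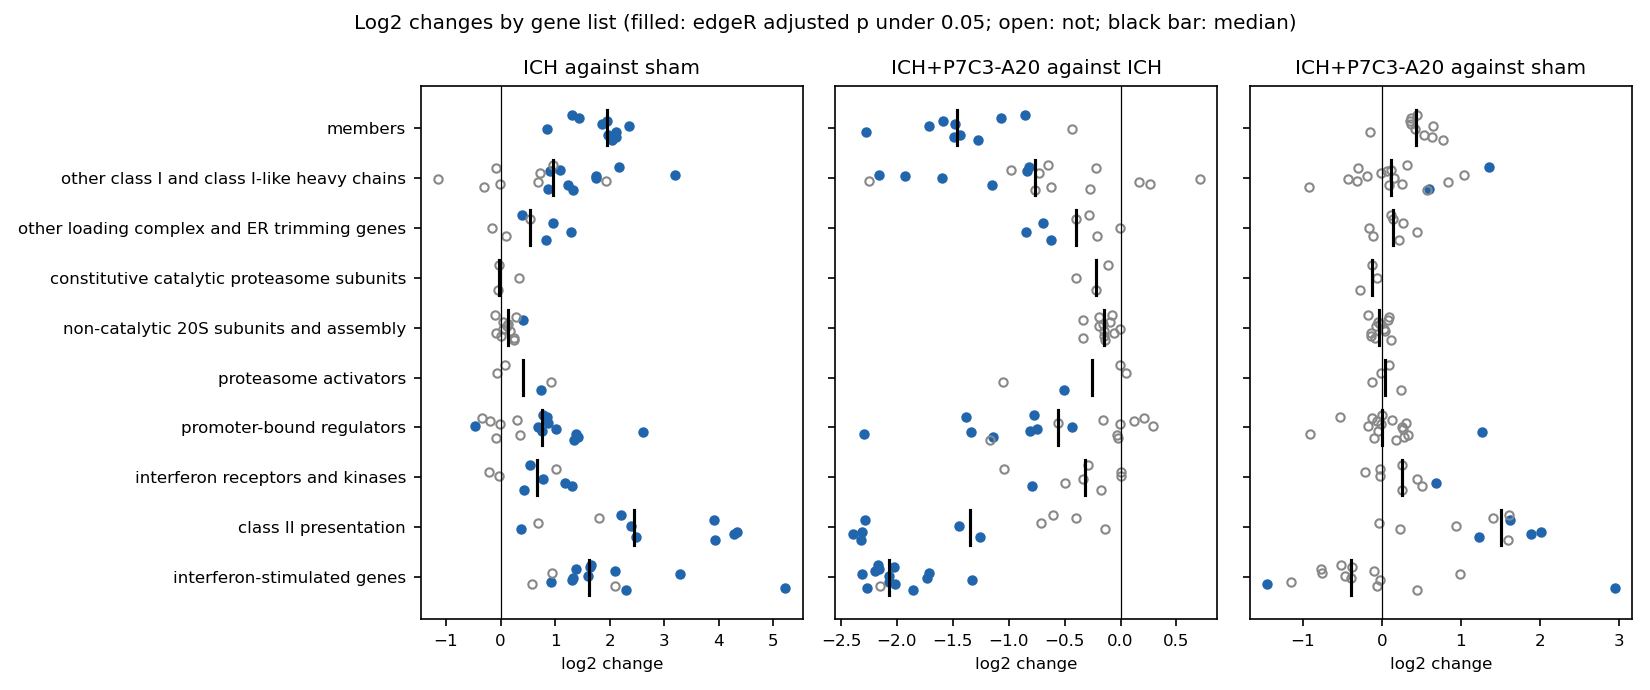
Log2 changes (horizontal axes) of the 10 members and of the other gene lists (rows), 1 point per tested gene, filled where edgeR's adjusted p is under 0.05, with black bars for medians. Members sit at a median of 1.96, -1.46 and 0.43 in the 3 panels, and the constitutive catalytic subunits near 0 in each.

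Markers of other cells moved with these groups. Summed over 10 microglia markers the level was 556 to 897 CPM in ICH+P7C3-A20, 1328 to 1388 CPM in ICH and 293 to 331 CPM in sham, and 10 of 10 were called higher in ICH than in sham, 5 lower in ICH+P7C3-A20 than in ICH (2 to 7 with 1 library left out) and 10 higher in ICH+P7C3-A20 than in sham (5 to 10). Summed over 10 monocyte and macrophage markers it was 231 to 366 CPM in ICH+P7C3-A20, 711 to 927 CPM in ICH and 59.9 to 92.9 CPM in sham. Of these markers 9 were called higher in ICH than in sham (8 to 9 with 1 library left out) and 1 lower (0 without sham 1, sham 3, ICH 1, ICH 3 or ICH+P7C3-A20 3), 6 lower in ICH+P7C3-A20 than in ICH (4 to 7 with 1 library left out) and 7 higher in ICH+P7C3-A20 than in sham (5 to 7). Endothelial markers summed to 294 to 360 CPM in ICH+P7C3-A20, 393 to 437 CPM in ICH and 214 to 248 CPM in sham. The part of these cells in the class I values was not tested.

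Of 8 neutrophil markers the sum was 22.4 to 42.1 CPM in ICH+P7C3-A20, 41.5 to 73.0 CPM in ICH and 8.57 to 10.3 CPM in sham, with Ly6g at 0 in all ICH and sham libraries. Dendritic cell markers summed to 11.4 to 13.5 CPM in ICH+P7C3-A20, 10.6 to 14.2 CPM in ICH and 9.31 to 13.5 CPM in sham. The 12 T and NK cell markers summed to 28.0 to 47.8 CPM in ICH+P7C3-A20, 39.5 to 49.3 CPM in ICH and 53.9 to 76.8 CPM in sham. Cd4, at 6.79 FPKM in ICH+P7C3-A20, 8.42 FPKM in ICH and 13.7 FPKM in sham, had the highest level among them, while Cd3d and Ncr1 were at 0 in ICH+P7C3-A20 and Cd3d, Cd8a, Gzmb, Nkg7 and Ncr1 at 0 in sham. The 5 at 0 in sham could only run against the order of the sum, as any count in ICH lies above 0. Their totals over the ICH libraries were 74 (Cd8a), 67 (Nkg7), 37 (Gzmb), 24 (Cd3d) and 18 (Ncr1) estimated counts. The T cell genes Cd3g, Cd3e and Cd8b1, not at 0 in sham, also had higher totals in ICH (71, 58 and 37) than in sham (7, 14 and 7). Of 7 T and NK cell markers tested, 1 was called higher in ICH than in sham and 1 lower. Neuron markers summed to 3734 to 5699 CPM in ICH+P7C3-A20, 2809 to 3093 CPM in ICH and 4449 to 4970 CPM in sham. The sums for astrocyte markers were 4421 to 5273 CPM in ICH+P7C3-A20, 5398 to 6419 CPM in ICH and 2672 to 2847 CPM in sham. Those for oligodendrocyte markers were 5860 to 12237 CPM in ICH+P7C3-A20, 13293 to 16092 CPM in ICH and 9548 to 11853 CPM in sham.

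Among 12734 tested genes with a mean of at least 5 CPM, the 10 whose log2 CPM followed the members' mean most closely over the 9 libraries were Plekha2 (r = 0.993), Ifitm3 (0.992), Gm11808 (0.991), Gm7551 (0.989), Gm6430 (0.988), Ifi35 (0.987), Hjurp (0.986), Nfkb1 (0.985), Atad5 (0.984) and Slfn2 (0.983). Ifitm3, Ifi35 and Slfn2 are interferon-inducible, and Nfkb1 encodes the p50 subunit of NF-kappaB. Ifitm3, an antiviral membrane protein, had 17.98, 42.4 and 32.0 FPKM in ICH+P7C3-A20, 67.6, 101 and 116 FPKM in ICH and 17.97, 21.4 and 26.0 FPKM in sham. Plekha2 had a smaller log2 change, 0.74 for ICH against sham and -0.61 for ICH+P7C3-A20 against ICH, so likeness here is of order across libraries and not of size.

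Of the members 7 lie in the MHC on chromosome 17, from Tapbp at 33915899 to H2-D1 ending at 35267499, while B2m, Psmb10 and Nlrc5 lie on chromosomes 2 and 8. Of 91 tested non-members between those ends 28 (30.8%) were called higher in ICH than in sham and 0 lower, where 15.5% of genes elsewhere were higher. In ICH+P7C3-A20 0 were called higher than in ICH and 9 (9.89%) lower, where 5.99% elsewhere were lower. Between ICH+P7C3-A20 and sham 11 were called higher and 0 lower, where 4.55% elsewhere were higher. Class II genes are among them, so neighbours include genes of related function, and most neighbours were not called. The members' median change of 1.96 in ICH against sham stood beside a median of 0.37 for these neighbours.

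**Figure D5:**
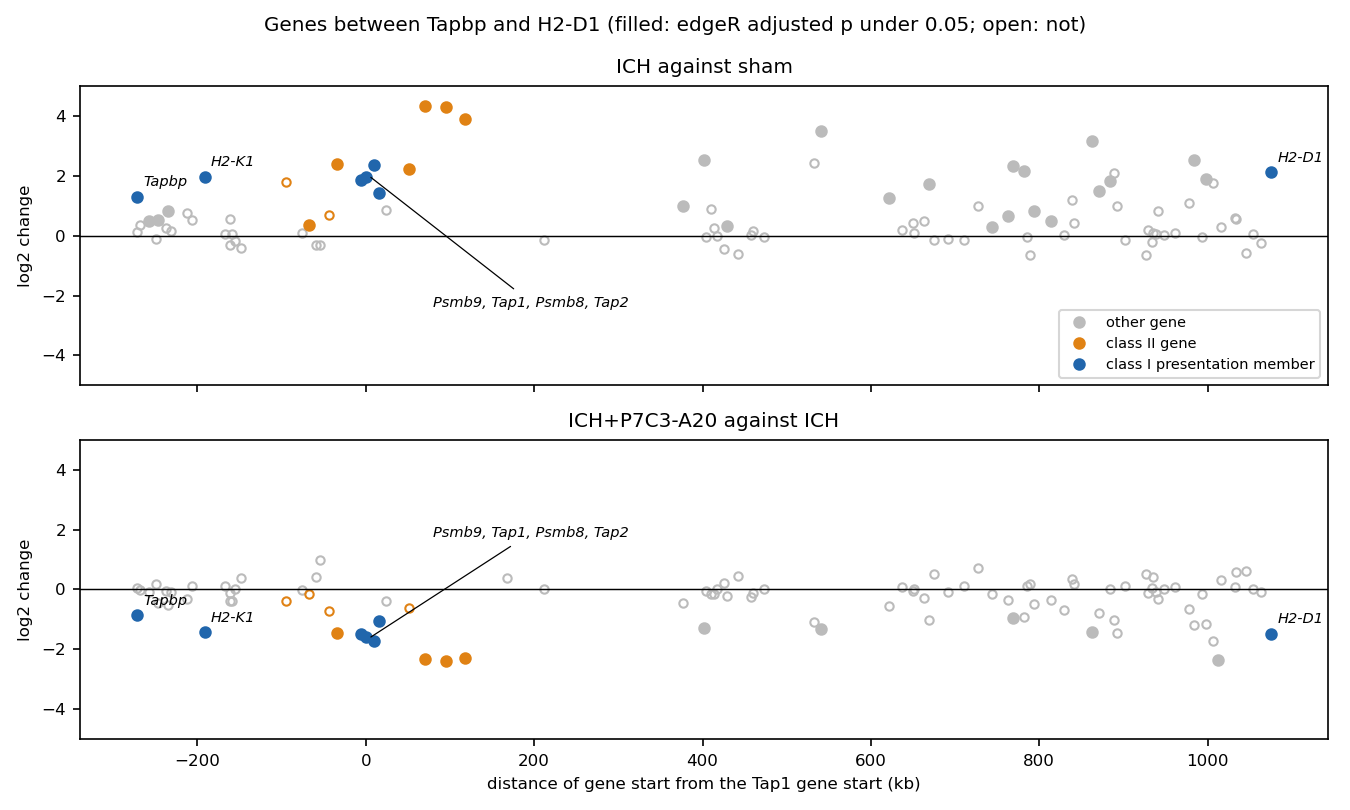
Log2 change (vertical axes) of tested genes between Tapbp and H2-D1 by distance of their start from that of Tap1 in kb, for ICH against sham (top) and ICH+P7C3-A20 against ICH (bottom), with members in blue, class II genes in orange, other genes in grey, and filled points for edgeR adjusted p under 0.05. Members and several class II genes lie away from 0 among many open grey points near 0, and 2 genes past a log2 change of 5 in the top panel are not drawn.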

How the data were processed

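Polyadenylated RNA of 9 mouse brains was made into dUTP-stranded libraries, per the labels' protocols. The submitters' processing notes name cutadapt 1.9, HISAT2 2.0.4 and StringTie 1.3.4d. Genome build, annotation, strand setting and counting step: not given in the sources used here. Per the file headers, what was deposited is 1 table of 35112 Ensembl genes holding, for each library, FPKM (the authors' scaling by length and library size) and estimated counts in whole numbers. As the counting step is not given, reads shared by copies or overlapping genes may have been split between them. The table's positions of 8 of the 10 members equal those of GENCODE M21 on GRCm38.

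Members were matched by symbol, and 0 list symbols were duplicated. In edgeR 4.0.16 (R 4.3.3), filterByExpr (count at least 10, total at least 15) chose the genes and TMM the library scaling. Robust quasi-likelihood tests came from 1 fit to the 9 libraries with a mean per group (6 residual degrees of freedom), two-sided, with Benjamini-Hochberg adjustment over 21900 genes. Each error is the size of the log2 change over the root of F, and 95% intervals use the moderated degrees of freedom. CPM used TMM-scaled totals. The share of immune subunits was compared by an exact permutation test (SciPy 1.17.1). The fits were also run on counts simulated from their own estimated spread, a simpler setting than these data, and no result here rests on that run. Alternatives were other scalings, DESeq2 1.42.0, no filter, limma 3.58.1 on log2(FPKM + 1) or log2(FPKM + 0.1) for genes with an FPKM of at least 1 in 3 libraries, fits to the 2 compared groups, the replicate number as a block, and leaving out each library in turn. Mitochondrial share as a covariate, the 6 libraries with over 12% mitochondrial counts and list counts with 1 library left out were added after the data were seen. Figures were drawn with matplotlib 3.10.9.

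Named genes were the 10 members, the largest and smallest changes of each pathway list, and the 10 genes most like the members' mean. Other list genes were named after their values were seen. The members and lists were chosen with earlier results of these data known.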

Additional observations from a re-analysis of the deposited data

How the results depend on the processing

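Over the other settings each member kept the direction of its log2 change for ICH against sham and for ICH+P7C3-A20 against ICH. The 10 calls of ICH against sham held in all 204 refits in which a member was tested. For ICH+P7C3-A20 against ICH 183 of 204 refits kept the side of the threshold and 21 lost a call, 20 of them of Tap2 or Psmb9 and 1 of Tapbp (limma without a filter, adjusted p = 0.0595, with 4.93e-06 to 0.0595 over its settings). Members called lower there numbered 7 with upper quartile scaling, 6 with limma on log2(FPKM + 1) and 7 to 9 with 1 library left out. Psmb9 and Nlrc5 did not pass limma's FPKM filter. For ICH+P7C3-A20 against sham the count of members called higher was 0 to 1 with 1 library left out (H2-D1), 1 with DESeq2 (B2m) and 2 with the mitochondrial share as a covariate (H2-D1, adjusted p = 0.0432, and B2m, adjusted p = 0.0256), and the cause was not tested. Signs turned in that comparison for Nlrc5 without sham 3 (-0.377 to 0.0580 over single libraries left out), for Psmb9 without ICH+P7C3-A20 2 (-0.186 to 0.673) and in the 6 libraries with over 12% mitochondrial counts (-0.0766), and for Tap1 after quantile normalization (-0.00381), none of them called.

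No pairing by replicate number was seen: deviations from the group mean correlated at -0.128 to 0.0919 for same-numbered libraries and at -0.0784 to 0.192 for the others. With 3 libraries a group these values cannot show that the samples were unpaired. With replicate number as a block, 10 members were called higher in ICH than in sham, 9 lower in ICH+P7C3-A20 than in ICH and 1 (H2-D1, adjusted p = 0.0450, with 0.0329 to 0.596 over its settings) higher in ICH+P7C3-A20 than in sham.

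Counts over all genes moved more than the members' counts. For ICH+P7C3-A20 against ICH they were 1914 as reported, 3402 with DESeq2, 961 with limma without a filter, 1073 in the 6 libraries and 571 to 2695 with 1 library left out. For ICH against sham they were 5701 as reported and 3208 with limma without a filter. For ICH+P7C3-A20 against sham they were 1165 as reported, 2047 with DESeq2, 135 with limma without a filter, 408 with limma on log2(FPKM + 1), 532 with the smaller pseudocount, 525 after quantile normalization, 435 with the 2 groups alone, 615 in the 6 libraries and 538 to 1434 with 1 library left out. The cause was not tested. With 3 mice a group, members at under 2 FPKM have wide intervals, and intervals cover the spread between these mice alone.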

Other observations

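The balance of light to heavy chain transcripts, chosen after values had been seen, kept no order by group. B2m FPKM divided by the summed FPKM of H2-K1 and H2-D1 was 7.71, 4.29 and 7.69 in ICH+P7C3-A20 brains, 6.09, 6.36 and 4.41 in ICH brains and 7.43, 7.02 and 3.58 in sham brains. The means were 6.57 ± 1.97, 5.62 ± 1.06 and 6.01 ± 2.12 for ICH+P7C3-A20, ICH and sham (SD, n = 3 each). The groups overlapped, with two-sided exact permutation p of 0.6 (ICH+P7C3-A20 against ICH), 0.7 (ICH against sham) and 0.5 (ICH+P7C3-A20 against sham). The lowest ratio of each group was in ICH+P7C3-A20 2, ICH 3 and sham 3, the libraries with the lowest mitochondrial share, and its part in the ratio was not tested.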
